A study of Mus musculus with 4 samples.

Results

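Complement and coagulation are 2 cascades of plasma proteins, most of which the liver makes. The genes described here are 48 members of these cascades, chosen by gene name for their function, out of 34761 gene names on the array. All 48 were found, read by 64 probes. They fall into 34 factors made by hepatocytes and secreted into blood, 6 genes of macrophages and other myeloid cells (C1qa, C1qb, C1qc, Cfp, C3ar1 and C5ar1), 5 genes of fibrinolysis (Plg, Plat, Plau, Plaur and Serpinf2) and 3 genes that act on cell surfaces of the vessel wall (F3, Thbd and Tfpi). RNA came from whole frozen livers of male C57BL/6 mice, an inbred laboratory strain. The mice received a high-fat, high-sucrose diet (HFHS) for 0, 5, 10 or 15 weeks from an age of 5 weeks, so that they were 5, 10, 15 and 20 weeks old when sampled. There was 1 array for each of the 4 times. The series text names 4 mice for each time and does not say whether an array holds RNA of 1 mouse or of a pool. Age and weeks of feeding cannot be told apart, since no age-matched livers without the diet are analysed here. With 1 array for each time, no difference has a replicate check, no test was made, and the number of arrays limits the precision.

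In complement, the classical, lectin and alternative routes all end in cleavage of C3, after which the terminal components assemble a pore in the target membrane. C1q, the sensor of the classical route, is made mainly by macrophages, whereas most other soluble components come from hepatocytes. In coagulation, tissue factor and factor VII start a chain of proteases that ends in thrombin, which turns fibrinogen into fibrin. Plasmin, made from plasminogen by the activators encoded by Plat and Plau, dissolves fibrin again.

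Several members lie beside each other in the genome. In the order of protein-coding genes of the RefSeq table (GRCm38.p6), no other protein-coding gene separates C1qb from C1qc or C1qc from C1qa, C8b from C8a, F7 from F10, F11 from Klkb1, Cfb from C2, Fgg from Fga, or Fga from Fgb. The stretches upstream of 8 members are shown because their genes stand for the patterns described below. C1qb and C1qc passed 2-fold at 10 and 15 weeks, and Plaur at 15 weeks only. C6 was higher at each later time and C8b lower at 15 weeks, C8a is the neighbour of C8b, and Fga and Fgb stayed within 2-fold. Each run gives the 250 bases before the gene's start in GRCm38.p6, written 5′ to 3′ along the gene's strand and credited to RefSeq. Capitals mark exact matches, on either strand, to any of 5 short motifs, namely GAGGAA (the core bound by PU.1, a myeloid factor), GTTAAT (a part of the HNF1 site), CAAAGT (a part of the HNF4 site), TTGCNNAA (C/EBP) and TTCNNNGAA (STAT), where N is any base. Bases come from chr4:136886201-136886450, reverse strand, for C1qb and from chr4:136892915-136893164, reverse strand, for C1qc. They come from chr7:24462233-24462482, forward strand, for Plaur and from chr15:4726960-4727209, forward strand, for C6. For C8b and C8a they come from chr4:104766067-104766316, forward strand, and from chr4:104876399-104876648, reverse strand. For Fga and Fgb they come from chr3:83025903-83026152, forward strand, and from chr3:83049864-83050113, reverse strand.
C1qb: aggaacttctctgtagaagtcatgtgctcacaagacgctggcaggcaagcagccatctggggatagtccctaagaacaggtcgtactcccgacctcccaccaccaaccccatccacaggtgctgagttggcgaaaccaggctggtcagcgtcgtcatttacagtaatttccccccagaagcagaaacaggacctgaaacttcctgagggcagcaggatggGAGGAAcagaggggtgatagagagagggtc
C1qc: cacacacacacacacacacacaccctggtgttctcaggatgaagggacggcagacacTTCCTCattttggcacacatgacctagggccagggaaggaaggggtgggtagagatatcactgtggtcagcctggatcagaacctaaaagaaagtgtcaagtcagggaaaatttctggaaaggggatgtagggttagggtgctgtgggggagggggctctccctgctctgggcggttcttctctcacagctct
Plaur: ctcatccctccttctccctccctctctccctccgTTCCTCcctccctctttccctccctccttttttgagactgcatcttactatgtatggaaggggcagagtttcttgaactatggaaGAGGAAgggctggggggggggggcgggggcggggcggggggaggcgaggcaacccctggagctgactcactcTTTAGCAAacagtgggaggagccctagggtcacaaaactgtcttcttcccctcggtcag
C6: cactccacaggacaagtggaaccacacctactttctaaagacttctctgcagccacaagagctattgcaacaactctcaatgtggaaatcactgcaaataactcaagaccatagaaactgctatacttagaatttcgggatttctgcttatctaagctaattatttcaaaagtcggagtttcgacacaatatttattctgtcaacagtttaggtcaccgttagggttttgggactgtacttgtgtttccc
C8b: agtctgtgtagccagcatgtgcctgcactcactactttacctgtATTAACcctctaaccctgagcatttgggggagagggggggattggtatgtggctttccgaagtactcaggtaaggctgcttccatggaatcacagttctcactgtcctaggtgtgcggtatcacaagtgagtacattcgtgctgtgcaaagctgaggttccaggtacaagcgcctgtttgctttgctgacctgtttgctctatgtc
C8a: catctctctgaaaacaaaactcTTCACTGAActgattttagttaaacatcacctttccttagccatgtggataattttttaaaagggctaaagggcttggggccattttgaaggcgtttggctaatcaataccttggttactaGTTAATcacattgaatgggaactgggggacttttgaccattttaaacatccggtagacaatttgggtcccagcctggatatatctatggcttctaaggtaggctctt
Fga: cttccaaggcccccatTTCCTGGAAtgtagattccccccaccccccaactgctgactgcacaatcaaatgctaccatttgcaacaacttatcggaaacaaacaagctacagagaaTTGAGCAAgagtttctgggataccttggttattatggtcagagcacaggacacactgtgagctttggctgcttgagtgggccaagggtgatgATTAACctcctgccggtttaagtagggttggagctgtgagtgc
Fgb: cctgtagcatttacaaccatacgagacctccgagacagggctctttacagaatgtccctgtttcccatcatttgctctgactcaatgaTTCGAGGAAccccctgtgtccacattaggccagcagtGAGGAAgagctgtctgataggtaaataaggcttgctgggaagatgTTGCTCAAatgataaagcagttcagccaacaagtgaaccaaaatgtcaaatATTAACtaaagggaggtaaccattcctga
The match of GAGGAA begins 30 bases before the start in C1qb and 193 bases before it in C1qc, where it lies on the other strand. Plaur holds GAGGAA at 2 places and TTGCNNAA at 1. C6 holds none of the 5 motifs in this stretch. In Fgb, 1 GAGGAA match overlaps the TTCNNNGAA match. Of 35 members with a promoter in the table, 6 hold GAGGAA, against 23.3% of all 32851 promoters. GTTAAT occurs in 7 of 26 hepatocyte-made members with a promoter, or 26.9%, against 6.43% of all promoters. TTGCNNAA occurs in 7 of these 26, against 9.56% of all promoters, and TTCNNNGAA in 6 of 26, against 7.02%. CAAAGT occurs in 5 of 26, against 12.6% of all promoters. A member counts once if any of its promoters matches, whereas the share of all promoters counts each promoter, so these shares have unlike units. A match is a description of these letters and does not show that a factor binds there.

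Each value below is a scaled log2 signal, that is, the log2 of a spot's processed fluorescence minus the 75th percentile of its array, so 0 is the level of that percentile. Probes differ in brightness, so levels of different genes are not compared. Between 44.5% and 48.3% of the 59305 spots of an array were well above background, the highest share at 15 weeks, and no spot was saturated. A gene counts as measured in a comparison where both arrays read its probe well above background, and it counts as higher or lower where they differed by 2-fold or more. Smaller differences are given as values only. The median measured gene stood at −0.02, −0.01 and −0.25 at 5, 10 and 15 weeks against 0 weeks, so that single genes at 15 weeks lie 0.25 higher when set against it. Of the 48 members, 45 were well above background on all 4 arrays. The exceptions were C5ar1, Plat and Plau. For 4 members, C3, Vtn, C1qc and F13b, 9 or 10 spots on each array read the same probe, with an SD between spots of 0.03 to 0.10 on the log2 scale, which covers error within an array only.

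Against 0 weeks, few members passed 2-fold, and among the 34 hepatocyte-made factors C6 alone was higher. At 5 weeks, 1 of 45 measured members was higher (C6) and 0 were lower, where 2.3% of all measured genes were higher and 1.57% lower. At 10 weeks, 5 of 45 were higher (C6, C1qa, C1qb, C1qc and Thbd) and 0 lower, against 2.92% and 1.53% of all genes. At 15 weeks, 7 of 46 were higher (C6, C1qa, C1qb, C1qc, C3ar1, Plat and Plaur) and 3 lower (C8b, F7 and Masp1), against 5.76% and 5.03% of all genes. Relative to the median gene, 8 were higher at 15 weeks, Tfpi being added, and only C8b was lower. Between later times, 0 of 45 members passed 2-fold either way at 10 against 5 weeks, where 0.953% of all genes were higher and 1.13% lower. At 15 against 10 weeks, 1 of 45 was higher (Plaur) and 2 were lower (C8b and F7), against 3.95% and 4.06% of all genes. The comparisons with 0 weeks share the same 0-week array. In whole liver, fewer cells of a type and less RNA in each cell cannot be told apart.

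**Figure D1:**
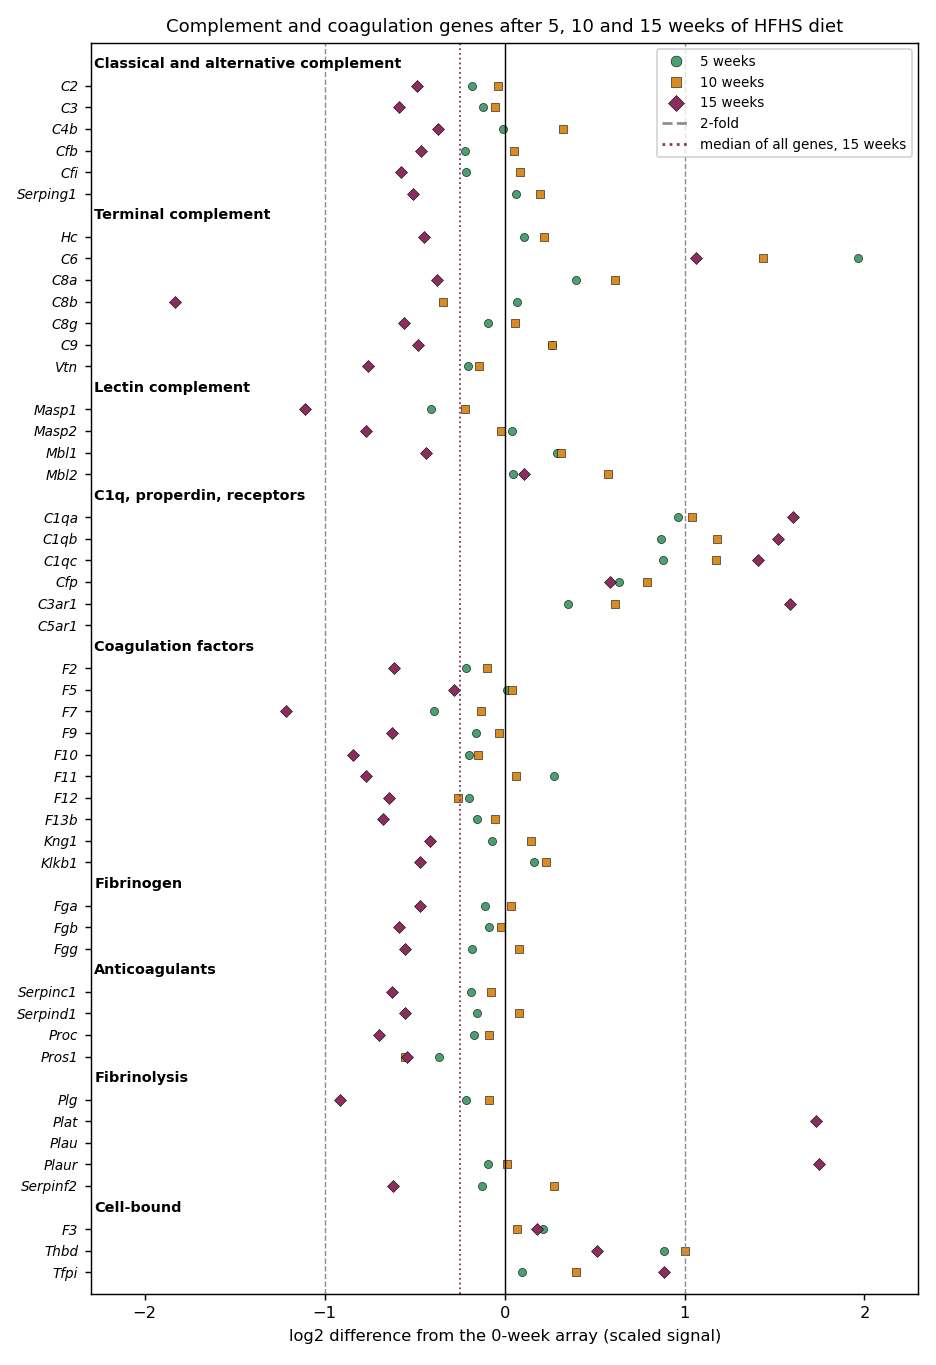
Log2 difference of each member from the 0-week array at 5 weeks (circles), 10 weeks (squares) and 15 weeks (diamonds), 1 array for each time, grouped by role; dashed lines mark 2-fold, the dotted line the median of all genes at 15 weeks (−0.25), and members not measured against 0 weeks have no symbol. C1q and C6 lie to the right at every time, and the 15-week diamonds of 32 of the 34 hepatocyte-made factors lie left of 0 with this scaling.

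The classical and alternative components differed little, and all 6 were below their 0-week levels at 15 weeks with this scaling. C2, C3, C4b, Cfb, Cfi and Serping1 stayed within 2-fold at every time. Their median was −0.15 at 5 weeks, 0.07 at 10 weeks and −0.50 at 15 weeks against 0 weeks. C3, the protein on which all routes converge, had levels of 11.07, 10.95, 11.01 and 10.48 at 0, 5, 10 and 15 weeks. It was 1.5-fold lower at 15 weeks, the largest difference of the 6. With this scaling its 15-week spots reached from 10.38 to 10.64, below the 10.99 to 11.20 of its 0-week spots. These ranges cover error within an array only. C4b, a component of the classical and lectin routes, had 9.11, 9.10, 9.43 and 8.73 and was the least lower of the 6 at 15 weeks, by 1.29-fold. Its probe may also read the near-identical C4a, so its value is uncertain. Under quantile normalization C3 was at −0.06 and C4b at 0.14 at 15 against 0 weeks. The direction of C4b and the size of the C3 difference thus depended on the scaling.

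The terminal components held the widest spread of the plasma factors. C6, which joins the growing pore after C5b, had levels of 3.38, 5.35, 4.82 and 4.44 at 0, 5, 10 and 15 weeks (probe at chr15:4748363-4748422, mm9). It was 3.9-fold higher at 5 weeks, 2.71-fold at 10 weeks and 2.09-fold at 15 weeks, so the 0-week array stands below the other 3 arrays. C8b, the beta chain of C8, had 7.15, 7.22, 6.81 and 5.32 (chr4:104477094-104477153, mm9). It was 3.56-fold lower at 15 weeks, the largest lower value of any member, and it was 1.27-fold lower at 10 weeks. C8a, the alpha chain of the same protein and the neighbour of C8b in the genome, had 6.04, 6.44, 6.65 and 5.66. Its difference of −0.38 at 15 weeks compares with −1.83 for C8b and −0.56 for C8g, the gamma chain, so the 3 chains were not lower by the same amount. C9, which forms most of the pore, had 3.75, 4.01, 4.01 and 3.27. Hc, which encodes C5, was at 0.11, 0.22 and −0.45 against 0 weeks at 5, 10 and 15 weeks. Vtn, which encodes vitronectin, an inhibitor of pore assembly, was 1.69-fold lower at 15 weeks. Over all scalings tried, C6 at 15 weeks ranged from 1.06 to 1.57 and C8b from −1.83 to −1.32.

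**Figure D2:**
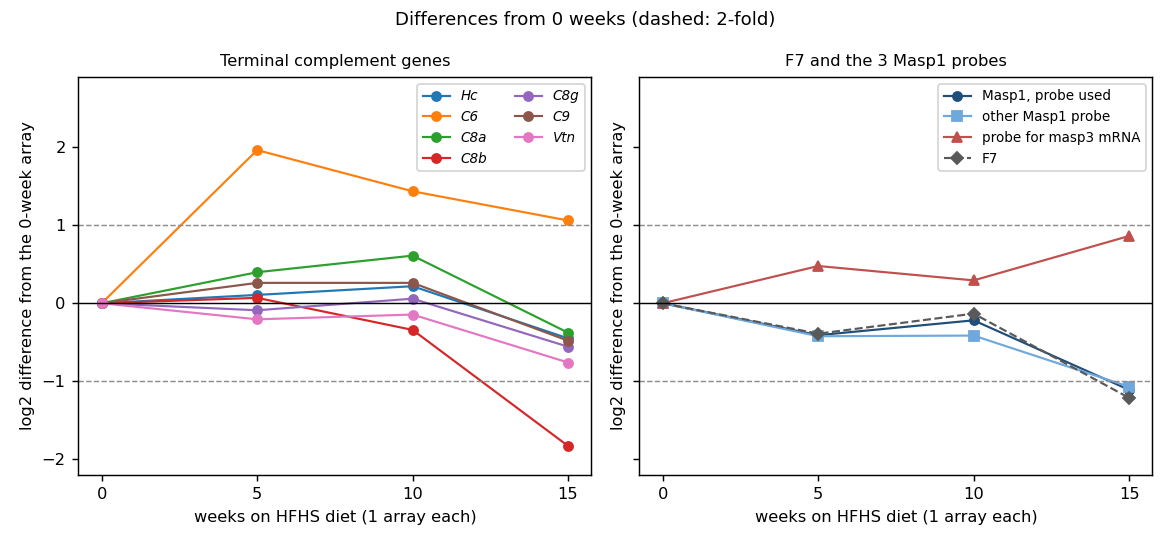
Log2 difference from the 0-week array over weeks on the diet, 1 array for each time, for 7 terminal complement genes (left) and for F7 and the 3 probes of Masp1 (right); dashed lines mark 2-fold. C6 is above 2-fold at each later time, C8b leaves the other chains of C8 at 15 weeks, and the probe described as masp3 mRNA lies above 0 where the other 2 Masp1 probes lie below.

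Of the lectin route, Mbl2 and Mbl1, which encode mannose-binding lectins that recognise microbial sugars, and their proteases Masp1 and Masp2 were measured at every time. Masp1 had levels of 4.55, 4.14, 4.33 and 3.44 at 0, 5, 10 and 15 weeks. It was 2.16-fold lower at 15 weeks, but by less than 2-fold relative to the median gene, at −0.86. The 3 Masp1 probes did not move alike. The probe used (chr16:23449609-23449668, mm9) was at −1.11 and a dimmer probe (chr16:23452460-23452519) at −1.07 at 15 weeks, whereas a probe that the array's design describes as masp3 mRNA (chr16:23469978-23470037) was at 0.86. MASP-3 is known as a splice product of the same gene that activates factor D of the alternative route. Averaging the 3 probes gave −0.44. Mbl2 had 8.54, 8.59, 9.12 and 8.65, and with C6 it was 1 of 2 hepatocyte-made factors above its 0-week level at 15 weeks. Mbl1 was at −0.44 and Masp2 at −0.77 at 15 weeks.

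The 3 C1q chains stood above their 0-week levels on each later array, by similar amounts, and passed 2-fold at 10 and 15 weeks. C1qa had levels of 2.62, 3.58, 3.66 and 4.22 at 0, 5, 10 and 15 weeks (chr4:136452409-136452468, mm9). C1qb had 2.35, 3.22, 3.54 and 3.87 (chr4:136436578-136436637), and C1qc had 2.94, 3.82, 4.12 and 4.35 (chr4:136445766-136445825). Each is therefore lowest on the 0-week array and highest on the 15-week array. At 5 weeks the 3 chains were 1.82-fold to 1.95-fold above 0 weeks, and at 10 weeks 2.06-fold (C1qa) to 2.27-fold (C1qb). With the array median, normexp or spike-in scaling, C1qa did not pass 2-fold at 10 weeks. At 15 weeks C1qa was 3.04-fold, C1qb 2.86-fold and C1qc 2.65-fold higher. The spots of C1qc ranged from 4.22 to 4.40 at 15 weeks and from 2.85 to 2.99 at 0 weeks, without overlap. These ranges, too, cover error within an array only. Cfp encodes properdin, which stabilises the C3 convertase of the alternative route, and had 3.74, 4.37, 4.53 and 4.33, within 2-fold at every time. C3ar1 and C5ar1 encode the receptors of the inflammatory fragments C3a and C5a. C3ar1 had −2.68, −2.33, −2.07 and −1.09 and was 3.01-fold higher at 15 weeks, but at 0.70 on the log2 scale with normexp background correction, which is under 2-fold. C5ar1 was not well above background at 0, 5 and 10 weeks and stood at −2.12 at 15 weeks, at least 2.77-fold higher than at 0 weeks. Of the 5 measured genes of this group, the median was 0.87, 1.04 and 1.52 at 5, 10 and 15 weeks, against −0.02, −0.01 and −0.25 for all measured genes.

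General macrophage markers differed in the same direction. Of 8 such genes, 5, 7 and 7 were at least 2-fold higher at 5, 10 and 15 weeks, and their summed linear signal, in units of the 75th percentile, was 69.9, 137, 156 and 208 at 0, 5, 10 and 15 weeks. All 8 were well above background on every array. The summed signal of 6 Kupffer cell markers was 96.6, 160, 213 and 225, with Cd163 not above background at 0, 10 and 15 weeks. Cd5l was the brightest of these, with 5.59, 6.41, 6.94 and 7.12. Timd4 was 0.98 lower on the log2 scale at 15 than at 0 weeks. At 15 against 10 weeks, Clec4f, Vsig4 and Timd4 were at −0.50, −0.27 and −0.92, and Cd5l and Marco at 0.18 and 1.003. The summed signal of 8 neutrophil markers was 4.03, 5.99, 10.4 and 9.65, with Ngp not above background on any array, Retnlg not at 0 and 5 weeks, and Cxcr2 not at 0, 5 and 15 weeks. Of these markers S100a8 and S100a9 were 6.15-fold and 5.3-fold higher at 15 weeks, while Ly6g was at −0.21 and Elane at −0.39. The part of these cells in the C1q and receptor values was not tested.

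**Figure D3:**
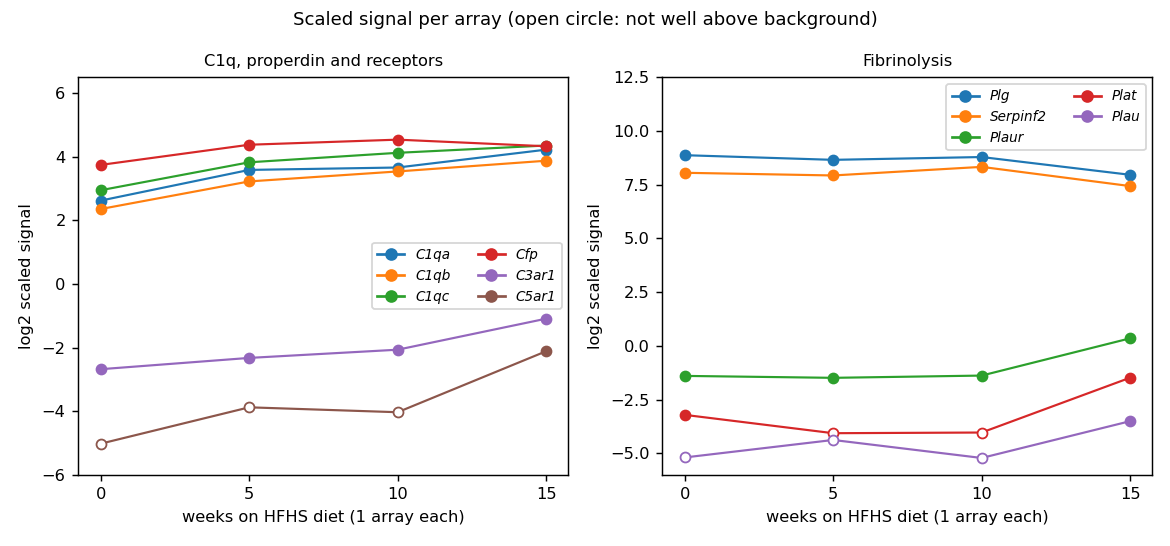
Scaled log2 signal on each of the 4 arrays for C1q, properdin and the anaphylatoxin receptors (left) and for the fibrinolysis genes (right), with filled circles well above background and open circles not. All 3 C1q lines climb with weeks on the diet, while Plaur is flat up to 10 weeks and 3.36-fold higher at 15 weeks than at 0 weeks. Heights of different genes depend on their probes and are not compared.

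The 10 coagulation factors of the plasma stayed close to their 0-week levels up to 10 weeks and were all below them at 15 weeks with this scaling. Their median was −0.15, −0.04 and −0.64 at 5, 10 and 15 weeks against 0 weeks. F7, the protease that tissue factor activates, had levels of 5.23, 4.84, 5.10 and 4.02 (chr8:13035257-13035316, mm9). It was 2.32-fold lower at 15 weeks, and its second probe gave −1.19 where the first gave −1.21. The second probe (chr8:13035287-13035346) overlaps the first, so it is not an independent reading. Relative to the median gene, F7 was at −0.96, within 2-fold. F10, its neighbour in the genome and the protease that makes thrombin, was at −0.84, with −0.10 at its second, dimmer probe. F5, the cofactor of factor X, had 6.36, 6.37, 6.40 and 6.08 and was the least lower of the 10, with a difference that turned to 0.14 under quantile normalization. F2 (prothrombin), F9, F11, F12, F13b, Kng1 (kininogen) and Klkb1 (prekallikrein) were 1.33-fold to 1.71-fold lower at 15 weeks. Kng1 can share signal with its close copy Kng2.

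All 3 fibrinogen chains and all 4 plasma anticoagulants were below their 0-week levels at 15 weeks with this scaling, within 2-fold. The 3 fibrinogen chains, which are encoded side by side, were at −0.47 (Fga), −0.59 (Fgb) and −0.55 (Fgg) at 15 weeks, where spike-in scaling turned Fga to 0.04. Fgb had levels of 10.92, 10.83, 10.90 and 10.33, and Fga had 6.63, 6.52, 6.67 and 6.16. At 5 and 10 weeks the 3 chains lay between −0.18 and 0.08, so fibrinogen RNA showed little difference before 15 weeks with the probes used. A second, dimmer Fga probe was at −0.30, −0.26 and −0.69 at 5, 10 and 15 weeks. Proc, which encodes protein C, an inhibitor of clotting, had 8.79, 8.62, 8.71 and 8.09 and was the lowest of the 4 anticoagulants at 15 weeks, at −0.70. Serpinc1 (antithrombin) was at −0.62 and Serpind1 (heparin cofactor II) at −0.55. Pros1, the cofactor of protein C, had 3.82, 3.46, 3.27 and 3.27 and was already 1.47-fold lower at 10 weeks, with a log2 difference of 0.0072 at 15 against 10 weeks.

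Taken as a group, the 34 hepatocyte-made factors had a median of −0.11, 0.04 and −0.55 at 5, 10 and 15 weeks. At 15 weeks, 32 of 34 were below 0 and 32 below the median gene, the exceptions being C6 and Mbl2. A shift of this kind was common among bright genes. Of the 510 measured genes with a mean level of 8 or more, 92.5% were below 0 at 15 weeks and the median was −0.45, where the 17 hepatocyte-made factors of that brightness had −0.57. Of 1607 genes with a mean of 6 or more, the median was −0.44, beside −0.55 for 25 of the factors. Relative to the median gene, the group stood at −0.30 at 15 weeks as scaled and at 0.026 under quantile normalization. Quantile normalization put 24 of the 34 below 0 and 15 below the median gene, with a median of −0.058 before the median gene was subtracted. With arrays scaled to the E1A spike-in RNA, an alternative added after the data were seen, the group's median was −0.042, with 20 of 34 below 0, that of all genes was 0.26, and the group relative to the median gene stayed at −0.30. How far the group lay below 0 thus depended on the scaling, and its place below the median gene was lost under quantile normalization. The summed signal of 6 hepatocyte markers (Alb, Apoa1, Ttr, Trf, Cps1 and Hnf4a) was 7005, 5956, 6825 and 4368 at 0, 5, 10 and 15 weeks. With the main scaling all 6 were below 0 at 15 weeks, from −0.38 (Ttr) to −2.02 (Cps1), and their median was −0.79. Cps1 was already 2.2-fold lower at 10 weeks. The part of hepatocytes in the lower factors was not tested.

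**Figure D4:**
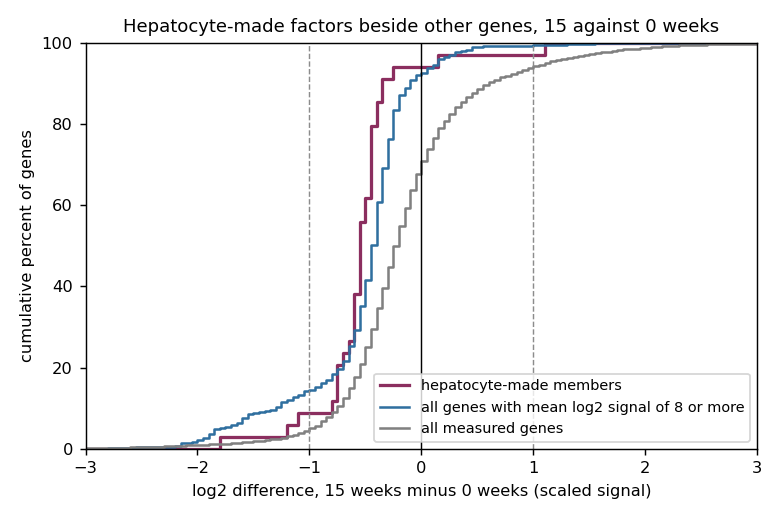
Cumulative percent of genes by log2 difference at 15 minus 0 weeks, for the 34 hepatocyte-made factors, the 510 measured genes with a mean level of 8 or more, and all 17562 measured genes; dashed lines mark 2-fold. At 0, the curve stands at 94.1% for the factors, 92.5% for the bright genes and 70.9% for all genes.

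The fibrinolysis genes divided at 15 weeks between the plasma proteins and the activators with their receptor. Plg, which encodes plasminogen, had levels of 8.87, 8.65, 8.78 and 7.96 at 0, 5, 10 and 15 weeks and was 1.88-fold lower at 15 weeks. Serpinf2, which encodes antiplasmin, the main inhibitor of plasmin, had 8.05, 7.93, 8.33 and 7.43 and was 1.54-fold lower. Both are made by hepatocytes, and neither passed 2-fold. Plaur encodes the receptor that holds urokinase on the cell surface and had −1.40, −1.49, −1.38 and 0.35 (chr7:25260569-25260628, mm9). It was 1.06-fold below 0 weeks at 5 weeks, 1.01-fold above at 10 weeks and 3.36-fold higher at 15 weeks. Plat, the tissue plasminogen activator, was well above background at 0 and 15 weeks only, at −1.48 at 15 weeks against −3.21 at 0 weeks, and was 3.31-fold higher. With normexp, Plat was at 0.64, under 2-fold, and Plaur at 1.18. Plau, the urokinase gene, was not well above background at 0, 5 and 10 weeks and stood at −3.51 at 15 weeks, at least 1.06-fold higher than at 0 weeks. For the 4 measured genes the median was 0.55 at 15 weeks, between 2 genes above and 2 genes below 0. Besides the macrophage markers, the summed signals of stellate cell, bile duct and platelet markers were highest at 15 weeks. They were 120, 151, 118 and 188 for 6 markers of stellate cells and fibroblasts at 0, 5, 10 and 15 weeks, all above background. Dcn was the brightest of these, with 6.85, 7.19, 6.84 and 7.46, so it carried the sum, and it was 1.52-fold higher at 15 weeks. Lum and Pdgfrb were 4.04-fold and 3.32-fold higher at 15 weeks, and Lrat and Reln were at 0.88 and 0.34. Des was 2.17-fold, 4.27-fold and 1.79-fold lower at 5, 10 and 15 weeks. For 5 bile duct markers the summed signals were 10.8, 12.4, 3.36 and 13.5. Of the bile duct markers, Spp1 was 6.11-fold and Sox9 2.15-fold higher at 15 weeks, and Epcam was at 0.75. Krt7 was at −0.26 and Krt19 was 3.95-fold lower. The brightest of them, which weighs most in the sum, was Krt19 at 0 weeks (3.01) and Krt7 at 5 weeks (2.99). At 15 weeks it was Spp1 (3.28), so the bile duct markers were not higher as a set. For 6 platelet markers the summed signals were 1.79, 2.26, 2.27 and 3.34, with Gp1bb not above background on any array and Gp9 not at 0 weeks. Pf4 was the brightest of them at 15 weeks, at 1.43, and was 2.34-fold higher than at 0 weeks. Treml1, Itga2b and Ppbp were at 0.19, 0.10 and −0.18. Gp9 was at least 1.17-fold higher at 15 than at 0 weeks but 4.98-fold lower than at 10 weeks. The part of these cells in the values of Plaur, Plat and Plau was not tested.

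With this scaling and the probes used, the 3 genes of cell surfaces were all above their 0-week levels at each later time, mostly within 2-fold. F3, which encodes tissue factor, the starter of coagulation, had levels of 0.02, 0.23, 0.08 and 0.19 at 0, 5, 10 and 15 weeks. Its 10-week difference was only 0.07, and its 15-week difference of 0.18 became −0.09 when its probes were averaged. The second F3 probe, well above background on 1 array only, was at −0.45, −0.58 and −0.36 at 5, 10 and 15 weeks. Thbd encodes thrombomodulin, which turns thrombin into an activator of protein C, and had 0.09, 0.98, 1.10 and 0.61, with 2.01-fold at 10 weeks as its highest value, just past the threshold and not past it with the array median, quantile normalization, normexp or spike-in scaling. Tfpi, the inhibitor of the tissue factor and factor VII complex, had −0.95, −0.85, −0.55 and −0.06. At 15 weeks it was 1.85-fold higher, its other probes gave 0.19 and 0.66, and relative to the median gene it was at 1.14. The summed signal of 6 endothelial markers was 73.5, 90.1, 84.7 and 62.9, and none of the 6 passed 2-fold at any later time. Clec4g was the brightest of these, with 5.48, 5.78, 5.70 and 5.09, so it weighed most in the sum. At 15 against 0 weeks Cdh5, Pecam1 and Stab2 were at 0.55, 0.28 and 0.09. Clec4g, Kdr and Tek were at −0.39, −0.41 and −0.23, so the markers were not lower as a set. The part of endothelial cells in the values of F3, Thbd and Tfpi was not tested.

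A list of 58 further genes of these pathways was described in the same way, of which 57 were found. At 15 weeks, 9 of 46 measured were higher and 0 lower against 0 weeks, against 5.76% and 5.03% of all genes, and 12 were higher relative to the median gene. At 5 weeks, 2 of 46 were higher, against 2.3% of all genes, and at 10 weeks 5 of 45, against 2.92%, with 0 lower at either time. C1ra, a protease bound to C1q, was at −0.84 at 15 weeks, within 2-fold, while C1s1 and C1rl of the same list were at −0.05 and −0.60. Cfd, the factor D that MASP-3 activates, had −0.03, 4.18, 4.34 and 3.85 and was 18.5-fold, 20.6-fold and 14.7-fold higher at 5, 10 and 15 weeks. Cfd is also made by fat cells, and of the other adipocyte markers Adipoq and Plin1 were above background at 5 weeks only and Lep on no array.

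Subunits of the receptors that bind C3 fragments on myeloid cells were higher at 15 weeks, with log2 differences of 4.01 for Itgax, 1.77 for Itgb2 and 1.65 for Itgam. In fibrinolysis, Anxa2, a surface receptor for plasminogen, had 3.96, 4.41, 4.003 and 6.64 and was 6.37-fold higher at 15 weeks. Serpine2, another protease inhibitor, was at 1.35, 2.36 and 1.30 at 5, 10 and 15 weeks. F13a1, the catalytic chain of factor XIII, was at 1.87 and Procr, the receptor of protein C, at 1.21 at 15 weeks. F13a1 was not well above background at 10 weeks. At 0 weeks F13a1 stood at −3.33, Serpine2 at −3.15 and Itgax at −2.43, where the lowest signal above background was −3.59. The differences of these dim probes are limited by their nearness to background.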

How the data were processed

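Liver RNA was measured on 4 Agilent arrays of 1 colour, 1 for each of 0, 5, 10 and 15 weeks on the diet. Per the file headers, the authors read them with Feature Extraction 10.7.3.1, which gave each spot a processed intensity on a linear scale, corrected for background, and marks for spots above background or uneven. The deposited value table held the same intensity divided by 1 constant for each array, the array's median. The 4 scans carry the same scan time.

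From the processed intensity, log2 was taken, and the 75th percentile of the 59305 spots other than controls was subtracted on each array, in Python 3.11.15 with pandas 2.3.3. Uneven and outlier spots were left out, and spots of a probe were averaged. Of several probes the one with the highest mean was used. Of 55681 probes, RefSeq named 27509 through their accession, 3549 through the current symbol and 404 through a former one, while 24219 keep the array's own gene name. Where only 1 array of a pair read a probe above background, its fold is a lower limit, written as at least N-fold. It divides the brighter signal by the dim one, or by that array's lowest signal above background where this is larger.

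Named were the members past 2-fold against 0 weeks, all macrophage, fibrinolysis and cell-surface members, in each other role group the members with the highest and the lowest 15-week difference, members whose probes disagreed in sign, and at most 12 other pathway genes past 2-fold, of which 1 is not reported here. Hc, C8a, C8g, C9, Vtn, Mbl1, Masp2, F10, Serpinc1, Serpind1, C1ra, C1s1 and C1rl were added after their values were seen. Values of Fgg, F11, Klkb1, Cfb and C2 are also given, although these genes do not meet the naming rule. The members, the gene lists and the cell markers were chosen with earlier results of these data known. Of 12 alternatives, the spike-in scaling and the values relative to the median gene were added after the data were seen. Normexp background correction used limma 3.58.1 with an offset of 50.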

Additional observations from a re-analysis of the deposited data

How the results depend on the processing

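No paired analysis was possible because each time had 1 array. Across 12 alternatives, 163 of 210 recomputed counts and medians of the main results stayed within 1.5 times the count or within the spot SD of the median. The other 47 moved, the cause not being tested. Of the recomputed values outside the main results, 87 stayed and 129 moved. Medians here are relative to the median gene at the times named against 0 weeks. Members higher at 10 weeks, 5 as reported, were 3 with the array median, normexp or spike-in scaling, each without C1qa and Thbd, and 8 at a 1.5-fold threshold. Members higher at 5 weeks, 1 as reported, were 2 with no background filter or spike-in scaling and 6 at 1.5-fold. Members lower at 15 weeks, 3 as reported, were 1 with quantile normalization, relative to the median gene or with spike-in scaling, and 17 at 1.5-fold. At 15 against 10 weeks, members higher (1 as reported) were 2 with the array median, the detected 75th percentile, a 1.5-fold threshold or relative to the median gene, and 4 with no filter or spike-in scaling. Members lower there (2 as reported) were 1 with the array median, the detected percentile, quantile normalization, normexp or relative to the median gene, 0 with spike-in scaling and 23 at 1.5-fold. Other pathway genes lower at 15 weeks, 0 as reported, were 1 with the mean of probes, 2 with no filter and 8 at 1.5-fold. For hepatocyte-made factors at 15 weeks (−0.30), quantile normalization gave 0.026, no filter −0.14 and the group mean minus the mean of all genes −0.40. At 5 weeks (−0.09) no filter gave −0.19 and the mean −0.0075. At 10 weeks (0.05) no filter gave −0.045. For C1q, properdin and receptors at 5 weeks (0.89), no filter gave 0.79 and the mean 0.74. At 10 weeks (1.05), normexp gave 0.97, no filter 0.93 and the mean 0.95. At 15 weeks (1.77), normexp gave 1.64, no filter 1.97 and the mean 1.504. For fibrinolysis genes at 15 weeks (0.81), normexp gave 0.27, no filter 2.10, the mean 0.65, and 1.99 came from moving Plg and Serpinf2 to the hepatocyte-made factors. At 5 weeks (−0.10) no filter gave −0.20, and at 10 weeks (0.02) no filter gave −0.11. Spike-in scaling leaves relative medians as they are. Dim probes of members (C3ar1, Plat, Plau and C5ar1) lie nearest to background, which limits them most. The same limit holds for F13a1, Serpine2 and Itgax among the other pathway genes.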

Other observations

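Some members read by several probes gave values that differed with the probe. Beside the Masp1 probes already described, whose dimmer copy had levels of 1.14, 0.72, 0.73 and 0.07 and whose masp3 probe had −1.08, −0.61, −0.79 and −0.22 at 0, 5, 10 and 15 weeks, this held for F10 and Tfpi. The second F10 probe (chr8:13056223-13056290, mm9) had 3.35, 3.27, 3.12 and 3.25, where the probe used (chr8:13055774-13055833) had 8.81, 8.61, 8.66 and 7.96. The other Tfpi probes had −1.24, −1.07, −1.13 and −1.05 (chr2:84281022-84281081) and −1.64, −1.35, −1.42 and −0.99 (chr2:84284179-84284238), where the probe used had −0.95, −0.85, −0.55 and −0.06. At 15 against 0 weeks, the 2 probes of Fga and of C8a differed by 0.22 and 0.21, and the 3 of Masp2 by up to 0.26. The 2 probes of F7, which overlap, and those of F5 and of C8g each differed by less than 0.05.

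Neighbouring members did not always move by the same amount. At 15 against 0 weeks F11 and Klkb1, which lie side by side, were at −0.77 and −0.47, and Cfb and C2 at −0.46 and −0.49. C9 and C6, with 8 coding genes between them, were at −0.48 and 1.06.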
